A study of Mus musculus with 22 samples.

Results

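The subunits of the NMDA receptor were followed in the brains of dominant and submissive mice. Members were the rows of the count tables named Grin1, Grin2a, Grin2b, Grin2c, Grin2d or Grin3a, which are 6 of 24421 genes. Grin2a and Grin2b were picked because of their difference between dominant and submissive females, so values of that contrast are given below as a description without a test. The other listed subunits complete the family apart from Grin3b, which was too low to be tested within either sex.

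Total RNA from the right brain hemisphere of 22 mice of the strain C57BL/6JOlaHsd (C57B6/J OlaHsd in the labels) was depleted of ribosomal RNA and sequenced from stranded libraries. There were 7 dominant males, 7 submissive males, 4 dominant females and 4 submissive females. The mice were housed in cages of 4, were 10 to 12 weeks old when their rank was set in the tube test, in which the mouse that pushes its opponent out of a narrow tube wins, and were sacrificed 3 to 4 days after ranking. No allele, drug or other treatment separated the groups, and the comparisons ask whether transcript levels follow social rank. Library names place the dominant and the submissive mouse of the same replicate number in the same cage. For female pairs 3 and 4 these names give a group label in place of a cage number, and per the study's methods some females were regrouped and ranked again. Males and females were deposited in separate tables and their library names carry different prefixes, so sex and library series cannot be told apart.

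The NMDA receptor is a glutamate-gated channel that also needs a co-agonist, glycine or D-serine, and that passes calcium only when the membrane is already depolarized, which makes it a detector of coincident activity in synaptic plasticity. Every receptor contains the GluN1 subunit, encoded by Grin1 and binding the co-agonist. It is combined with glutamate-binding GluN2 subunits, encoded by Grin2a to Grin2d, or with the glycine-binding GluN3 subunits. In the adult forebrain GluN2A and GluN2B prevail, GluN2C is typical of cerebellar granule cells, GluN2D of some subcortical neurons and interneurons, and GluN3A of the immature brain.

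All 6 genes lie on the minus strand of mm10. Grin1 spans chr2:25291177-25319187, Grin2a chr16:9577710-9992533, Grin2b chr6:135729805-136173511, Grin2c chr11:115249169-115267243, Grin2d chr7:45832483-45866681 and Grin3a chr4:49661611-49845769. Counts were taken over merged exons, whose total is the Length column of the tables. It was 4372 bases for Grin1, 4512 for Grin2a, 7505 for Grin2b, 4895 for Grin2c, 4383 for Grin2d and 7711 for Grin3a. Of the exon bases of Grin1, 1324 overlap genes of the opposite strand, Lrrc26 and Grin1os, and since the strand setting of the counting is not given in the sources used here, reads of that stretch could belong to either gene. Grin1os itself held 0 to 3 counts per library. The counted exons end before the GENCODE 3′ untranslated region does in 3 genes, by 9812 exon bases in Grin2a, 16572 in Grin2b and 600 in Grin2d. With the exon bases that GENCODE lists elsewhere in the gene, 13421 bases of Grin2a and 17337 of Grin2b were not counted, and 25.2% and 30.2% of the GENCODE exon bases of these genes entered the counts, compared with 97.2% for Grin2c.

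Between 12403943 and 16488762 reads per library were counted on genes. In each of the 54 possible pairs of libraries of 1 group the counts differed by more than sampling noise (chi-square per gene 1.81 to 16.6). Neuronal, glial and vascular markers were present in all libraries, and markers of the cerebellum were among them. In dominant male 1, 10 of 10 cerebellar granule cell markers and 6 of 6 Purkinje cell markers were below all other males, with summed levels of 127 CPM (counts divided by library size, corrected by TMM) against 468 to 999 CPM for granule cells, and of 1504 CPM against 2289 to 3051 CPM for Purkinje cells. The Purkinje marker Pcp2 had 0 counts there, which allows up to 3. Results in males are therefore given with and without this library where it matters. In dominant male 6, 4 of 10 granule cell markers and 3 of 6 Purkinje cell markers were above all other males. Below all other males were 2 of 8 cortical and hippocampal and 3 of 8 thalamic and midbrain markers. Its granule cell sum of 941 CPM lay within the range of the other males. In a tissue homogenate, fewer cells of a type and less RNA per cell cannot be told apart.

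Per length of counted exon, the obligatory subunit gene was the most abundant. Over the 22 libraries Grin1 had 59.0 ± 7.10 RPKM (SD, n = 22; CPM per kilobase of Length), Grin2b 37.8 ± 7.23 RPKM, Grin2a 21.9 ± 2.33 RPKM, Grin3a 11.8 ± 1.42 RPKM, Grin2c 9.02 ± 1.29 RPKM and Grin2d 0.952 ± 0.140 RPKM. Within single libraries, Grin1 was above Grin2b, Grin2b above Grin2a, Grin2a above Grin3a and Grin2c above Grin2d in 22 of 22. Grin3a was above Grin2c in 19 of 22, so the order of these neighbours was not fixed. Grin3b, which encodes the other GluN3 subunit and is known mainly from motor neurons, came last with 0.154 RPKM and 4 to 12 counts per library, and failed the expression filter in both sexes. Grina, an unrelated gene that shares only the name, had 151 RPKM. Among the GluN2 transcripts per length, Grin2b made up 53.9 ± 3.81% (SD, n = 22), Grin2a 31.5 ± 0.978%, Grin2c 13.3 ± 3.08% and Grin2d 1.38 ± 0.216%. The share of Grin2a was the steadiest of the 3 larger ones, between 29.3% and 33.1% in all libraries, while that of Grin2c ran from 5.93% to 18.4%.

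**Figure D1:**
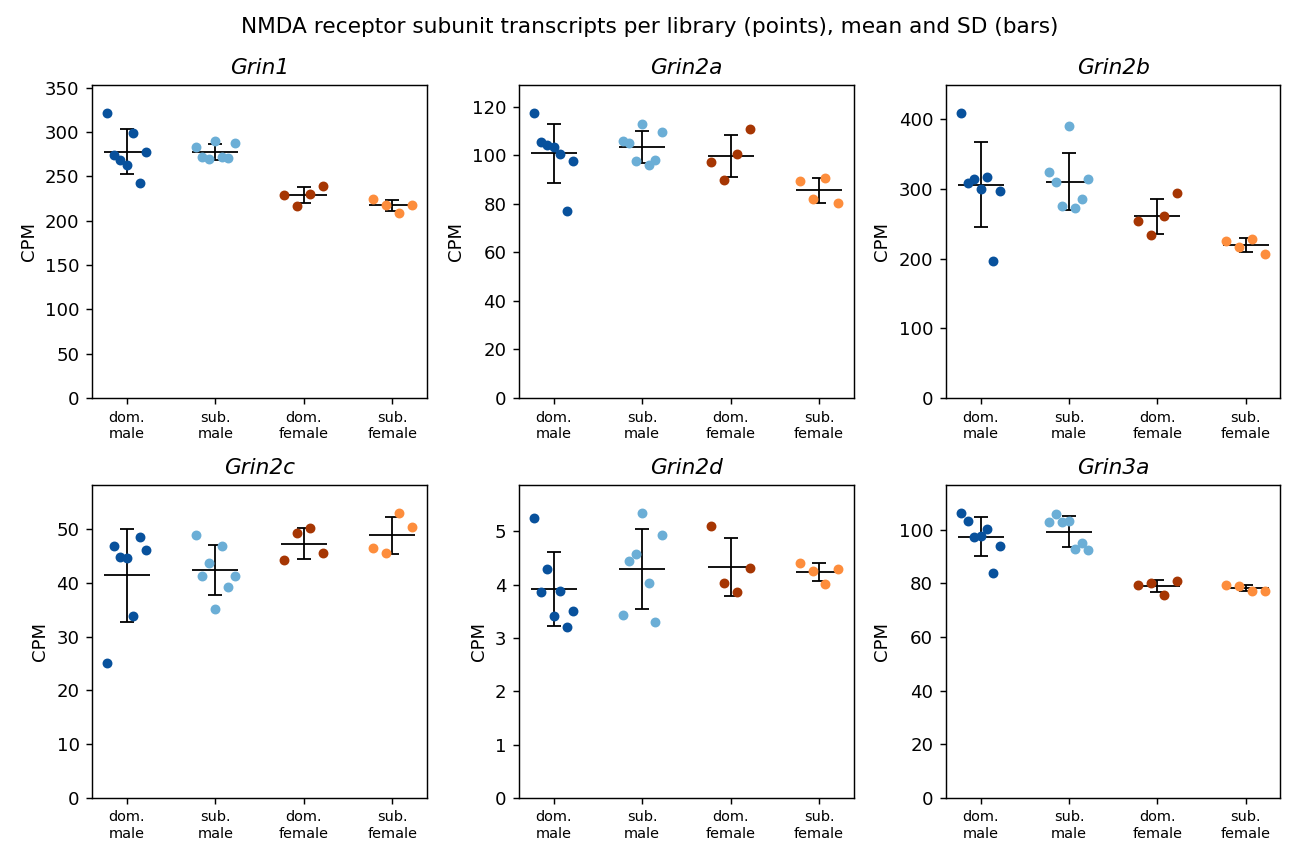
Transcript levels of the 6 subunit genes in CPM (y axes from 0) for dominant and submissive males (n = 7 each) and females (n = 4 each); points are libraries, bars the mean ± SD. Grin1 and Grin3a of all females lie below those of all males, the ranks overlap in males for every subunit, and Grin2b of dominant females (234 to 294 CPM) lies above that of submissive females (207 to 228 CPM).

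In males, social rank did not separate any subunit. Of 14737 genes tested with edgeR's quasi-likelihood test and Benjamini-Hochberg adjustment, 0 (0%) were called at an adjusted p under 0.05 and 194 (1.32%) had an unadjusted p under 0.05. Of the 6 members, 0 were called, 0 had an unadjusted p under 0.05, and 0 were free of overlap between the ranks (background 0.00679%). DESeq2 also called 0 genes (background 0%).

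Grin1, the obligatory subunit, had 321, 274, 268, 263, 299, 242 and 277 CPM in dominant males 1 to 7, with a mean of 278 ± 25.5 (SD, n = 7). In submissive males it lay between 269 and 290 CPM (median 272), with a mean of 278 ± 9.04 CPM (SD, n = 7). The highest and the lowest male were both dominant, and the submissive males lay between them. The log2 fold change, dominant relative to submissive, was -0.00099 (SE 0.0495, edgeR adjusted p = 1.00).

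Grin2a encodes the GluN2A subunit of mature synapses. It had 117, 105, 104, 103, 101, 76.9 and 97.5 CPM in dominant males 1 to 7 (mean 101 ± 12.2, SD, n = 7) and between 95.8 and 113 CPM in submissive males (median 105, mean 103 ± 6.55, SD, n = 7). Here too the extremes were dominant males 1 and 6. The log2 fold change was -0.04 (SE 0.0679, edgeR adjusted p = 1.00). It was -0.08 without dominant male 1, 0.02 without dominant male 6 and -0.02 without submissive male 4, and in no case called.

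Grin2b encodes GluN2B, the subunit with slow channel closing that prevails early in development and persists in the forebrain. Its level was 408, 308, 314, 300, 317, 197 and 298 CPM in dominant males 1 to 7 (mean 306 ± 61.4, SD, n = 7). Submissive males 1 to 7 had 324, 310, 275, 391, 273, 286 and 314 CPM (mean 310 ± 40.6, SD, n = 7). Dominant male 1 and submissive male 4 were high and dominant male 6 was low, and the remaining 11 males lay between 273 and 324 CPM. The log2 fold change was -0.02 (SE 0.111, edgeR adjusted p = 1.00). It was 0.06 without dominant male 6 and -0.10 without dominant male 1, and in neither case called.

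Grin2c had 25.2, 47.0, 44.8, 44.7, 33.8, 48.6 and 46.2 CPM in dominant males 1 to 7 and between 35.1 and 48.9 CPM in submissive males (median 41.4). Dominant male 1, whose cerebellar markers were low, had the lowest Grin2c of all 22 libraries. With it the log2 fold change was -0.03 (SE 0.115, edgeR adjusted p = 1.00), and without it 0.06. Grin2d, at 42 to 78 counts per male library, had a log2 fold change of -0.13 (SE 0.128) and Grin3a of -0.03 (SE 0.0503), with an adjusted p of 1.00 in the same edgeR test for both. The value of Grin2d was -0.21 without dominant male 1, -0.08 without dominant male 6 and -0.07 without submissive male 4, and in no case called.

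Nor did the balance between subunits follow rank in males. The log2 ratio of Grin2b to Grin2a per length was 0.85 ± 0.134 (SD, n = 7) among dominant males and 0.84 ± 0.102 (SD, n = 7) among submissive ones. The means lay 0.0086 apart (two-sided exact permutation test, p = 0.906; within cages, exact paired permutation test, p = 0.922). The log2 ratio of Grin1 to the summed GluN2 transcripts was -0.18 ± 0.121 (SD, n = 7) among dominant males and -0.21 ± 0.0833 (SD, n = 7) among submissive ones, which lay 0.03 apart (two-sided exact permutation test, p = 0.589; within cages p = 0.438).

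In females, Grin2a and Grin2b were higher in dominant than in submissive mice, while the other 4 subunits differed little. Both were chosen on this contrast, so their values are a description. For Grin2b, dominant females 1 to 4 had 254, 234, 261 and 294 CPM and submissive females 1 to 4 had 226, 216, 228 and 207 CPM. The ranks did not overlap. Mean levels were 261 ± 25.1 CPM and 219 ± 9.65 CPM (SD, n = 4 each), and the log2 fold change was 0.24 (SE 0.0496), a fold of 1.18. For Grin2a, dominant females had 97.2, 89.8, 100.3 and 111 CPM and submissive females 89.2, 82.1, 90.7 and 80.3 CPM. One value of each rank crossed over, dominant female 2 below submissive female 3. The means were 99.5 ± 8.65 CPM and 85.6 ± 5.14 CPM (SD, n = 4 each), with a log2 fold change of 0.21 (SE 0.0527), a fold of 1.16.

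Grin1 had a log2 fold change of 0.07 (SE 0.0336) in females, with 229, 217, 231 and 239 CPM in dominant and 224, 218, 209 and 218 CPM in submissive mice, which overlapped. The remaining subunits showed smaller differences. Grin2c averaged 47.4 ± 2.86 CPM in dominant females and 48.9 ± 3.42 CPM in submissive ones (SD, n = 4 each), and its log2 fold change was -0.05 (SE 0.0550). Grin2d had a log2 fold change of 0.02 (SE 0.126), and Grin3a, with 75.7 to 80.7 CPM in dominant and 77.0 to 79.5 CPM in submissive females, of 0.01 (SE 0.0368). Of the 6 members, 1 had ranks without overlap, against 5.6% of all genes tested in females, and 2.93% with the dominant mice higher. Over all genes tested in this contrast, edgeR called 0.0942%, edgeR with the cage as a block 0.242% and DESeq2 1.46%. Nothing is read from the overlap or from calls of members, because the rule used this contrast.

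**Figure D2:**
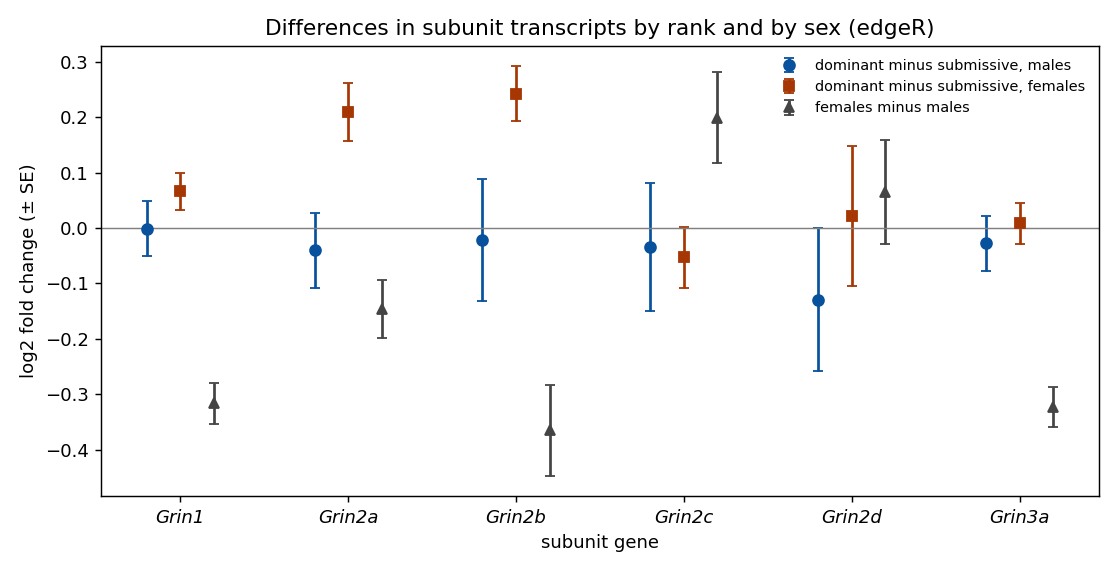
Log2 fold change with its standard error (edgeR) for the 6 subunit genes: dominant minus submissive males (circles, 7 against 7), dominant minus submissive females (squares, 4 against 4) and females minus males (triangles, 8 against 14). The male rank values lie near 0, Grin2a and Grin2b are at 0.21 and 0.24 for rank in females, and Grin1, Grin2a, Grin2b and Grin3a are below 0 for sex.

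Cage mates were then compared with each other. In each of the 4 female cages the dominant mouse had the higher Grin2a and the higher Grin2b. The differences in log2 CPM for Grin2b were 0.17, 0.11, 0.19 and 0.51 in pairs 1 to 4, and for Grin2a 0.12, 0.13, 0.15 and 0.46, so that pair 4 had the largest gap for both. The mean of the numbered cages (pairs 1 and 2) was 0.14 for Grin2b and 0.13 for Grin2a, and that of the pairs with group labels (3 and 4) was 0.35 and 0.30. In males the sign varied: for Grin2b the dominant mouse was higher in 3 of 7 cages, with differences between -0.54 and 0.33, and for Grin2a in 4 of 7, between -0.35 and 0.15. Grin2d was higher in the dominant male in 1 of 7 cages, and Grin2c in 5 of 7. The difference of the rank effects between the sexes, female minus male, was 0.27 (SE 0.162) for Grin2b and 0.26 (SE 0.105) for Grin2a, given without a test because it contains the female contrast. In the fit over all genes 0 of 15233 were called for this difference (background 0%, with 3.32% at an unadjusted p under 0.05), and DESeq2 called 0 as well (0%).

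**Figure D3:**
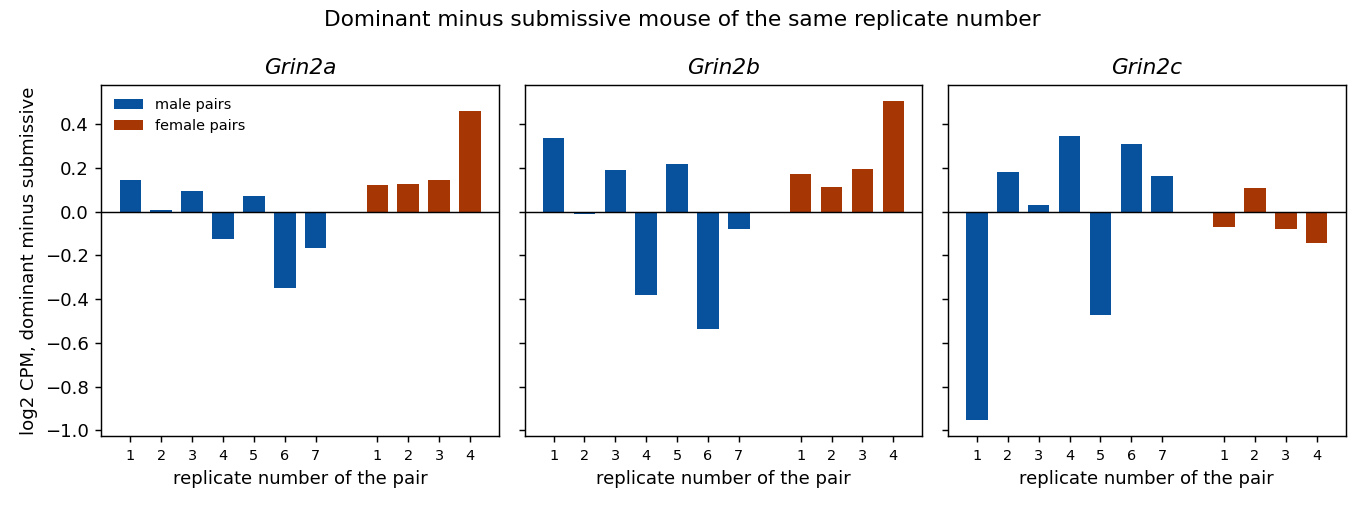
Difference in log2 CPM between the dominant and the submissive mouse of the same replicate number for Grin2a, Grin2b and Grin2c (7 male and 4 female pairs; 1 bar per pair). All 4 female pairs are above 0 for Grin2a and Grin2b, male pairs fall on both sides, and male pair 1 has the lowest Grin2c bar at -0.95.

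Part of the female difference ran with the Length column. Across the genes tested in females, dominant relative to submissive, 72.6% of the genes in the longest of 5 equal classes (Length of 4949 bases and more) had a fold change above 0, compared with 33.3% of the shortest class. In males the tilt was the other way and smaller, 33.4% against 56.4%. A loess curve of log2 fold change on log10 Length had a value of 0.046 at the Length of Grin2b in females, which is 18.8% of its log2 fold change of 0.24. At the Length of Grin2a the curve stood at 0.013, or 6.44% of 0.21. Grin3a, slightly longer than Grin2b, had a curve value of 0.047 and a log2 fold change of 0.01. After each library's own length trend was removed, the log2 fold changes were 0.20 (SE 0.0456) for Grin2b and 0.20 (SE 0.0513) for Grin2a, and nearly equal, while that of Grin3a turned from 0.01 to -0.04 (SE 0.0375). The trend value of the libraries at the Length of Grin2b was -0.0641 to -0.0159 in dominant and -0.102 to -0.0780 in submissive females, without overlap, and -0.104 to 0.126 in males. Removing the trend on GC content instead left 0.24 and 0.22.

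**Figure D4:**
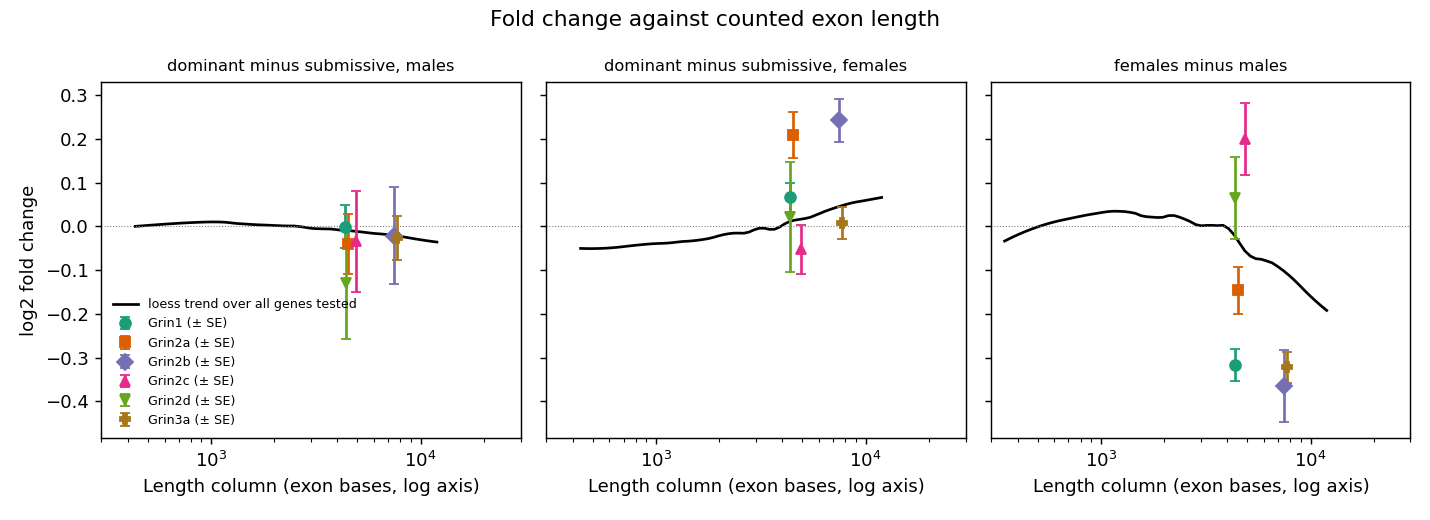
Log2 fold change against the Length column (exon bases, log axis) for rank in males, rank in females and sex; the line is a loess curve (span 0.3) over all genes tested, the symbols are the 6 subunits ± SE. In females the curve rises with Length and stands at 0.046 at Grin2b, well under its 0.24, and for sex it falls to -0.10 at Grin2b, whose value is -0.37.

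Marker lists of brain regions and cell types were set beside the female contrast, in which 49.1% of all genes tested were above 0. Of the brainstem neuron markers, 7 in all, 4 passed the expression filter and 4 of these were lower in dominant females, and edgeR called 2, the serotonergic genes Tph2 and Slc6a4. The summed level of the list was 5.57 to 18.7 CPM in dominant and 19.1 to 36.6 CPM in submissive females, without overlap, and Hoxb5 was at 0 counts in at least 1 dominant female. In every other list 0 markers were called. The cortical and hippocampal neuron markers were above 0 in 8 of 8, with a median log2 fold change of 0.13 and overlapping sums of 818 to 939 CPM in dominant and 771 to 842 CPM in submissive females. Above 0 were also 7 of 8 striatal, 4 of 4 endothelial and 4 of 5 microglia markers. Below 0 were 9 of 10 cerebellar granule cell markers (median -0.07, with overlapping sums of 669 to 924 CPM in dominant and 670 to 1019 CPM in submissive females), 4 of 5 olfactory bulb markers and 6 of 6 choroid plexus and ependyma markers (sums of 683 to 841 and 656 to 990 CPM). Submissive female 3 had 22.6 CPM of pituitary markers, against 1.26 to 3.41 CPM in the other libraries. The part of these in the difference of Grin2a and Grin2b was not tested.

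Between the sexes, 4 of 6 subunits were called, all lower in females, where 36.2% of 15233 genes were called and 17.8% were called lower. Grin1 had 209 to 239 CPM in females (median 221) and 242 to 321 CPM in males (median 273), without overlap, and a log2 fold change, female relative to male, of -0.32 (SE 0.0366, edgeR adjusted p = 2.15e-07). Grin3a had 75.7 to 80.7 CPM in females (median 79.2) and 84.0 to 106 CPM in males (median 98.9), again without overlap, with -0.32 (SE 0.0362, edgeR adjusted p = 1.33e-07). DESeq2 called 4 members as well (background 34%). By overlap, 2 of 6 members were apart, against 6.11% of all genes and 2.07% with females lower.

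Grin2b overlapped between the sexes, with 207 to 294 CPM in females (median 231) and 197 to 408 CPM in males (median 309). Apart from dominant male 6, all males lay above all submissive females. Its log2 fold change was -0.37 (SE 0.0818, edgeR adjusted p = 0.000954). Grin2a had the smallest of the called differences, -0.15 (SE 0.0529, edgeR adjusted p = 0.0319), and lost its call without dominant female 2 (log2 fold change -0.13, adjusted p = 0.0616), without submissive female 4 (-0.14, adjusted p = 0.0533) and with the GC trend removed (-0.12, adjusted p = 0.0569).

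Grin2c went the other way. It had 44.3 to 53.0 CPM in females (median 47.9) and 25.2 to 48.9 CPM in males (median 44.3), and a log2 fold change of 0.20 (SE 0.0815) that missed the threshold (edgeR adjusted p = 0.0574). It passed without dominant male 2 (log2 fold change 0.22, adjusted p = 0.0443), without dominant male 6 (0.21, adjusted p = 0.0413) and without dominant males 1 and 6 (0.16, adjusted p = 0.0354). No other fit that left out a single sample called it, with an edgeR adjusted p of up to 0.140 (0.17, without submissive female 3). The log2 fold change was 0.25 (adjusted p = 0.0178) with the length trend removed and 0.10 (adjusted p = 0.392) with the GC trend removed. Grin2c is GC-rich, at 61.6%, against 48.9% in Grin2b. Grin2d had a log2 fold change of 0.06 (SE 0.0939, edgeR adjusted p = 0.629), which turned to -0.04 with the GC trend removed, and Grin3b of -0.29 (SE 0.222, adjusted p = 0.335). Removing the length trend left -0.30 for Grin1, -0.26 for Grin2b, -0.22 for Grin3a and -0.12 for Grin2a, all 4 still called. The curve value at Length was 28.2% of the difference for Grin2b and 33.4% for Grin3a.

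The balance of subunits differed by sex too. The ratio of Grin2b to Grin2a per length was 1.56 ± 0.0295 (SD, n = 8) in females and 1.80 ± 0.146 (SD, n = 14) in males. On the log2 scale the sexes were -0.21 apart (two-sided exact permutation test, p = 4.38e-05). With the length trend removed they were -0.13 apart. The log2 ratio of Grin1 to summed GluN2 differed by -0.11 between the sexes, and by -0.04 in submissive mice alone. Its mean was -0.36 in dominant and -0.25 in submissive females, and -0.18 in dominant and -0.21 in submissive males. These values are a description without a test, since Grin2a and Grin2b were chosen for their difference between dominant and submissive females. Among GluN2 transcripts, Grin2b held 50.4 ± 1.42% in females (SD, n = 8) and 55.8 ± 3.33% in males (SD, n = 14), while Grin2c held 12.6% to 18.2% in females and 5.93% to 18.4% in males. Markers moved with sex as well: 9 of 10 granule cell markers were above 0 in females (50% of all genes were) and 3 were called higher, 7 of 8 cortical and hippocampal markers were above 0 and 2 were called higher, and 8 of 8 interneuron markers were above 0 and 1 was called higher. Striatal markers had 3 of 8 called higher and Purkinje cell markers 1 of 6. Of the 6 brainstem markers tested, 6 were below 0 (median -0.64) and Slc6a5 and Slc6a4 were called lower. Called lower were also 3 of 6 astrocyte, 3 of 6 oligodendrocyte, 2 of 8 thalamic and midbrain, 2 of 5 olfactory bulb and 1 of 6 choroid plexus and ependyma markers. Oligodendrocyte precursor markers had 3 of 4 lower and 1 higher, microglia markers 1 of 5 lower and 1 higher, and endothelial and pituitary markers 0 called. Their part in the subunit differences was not tested.

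Membership in a cage was tested within each sex as a set of terms beside rank. In males 868 of 14737 genes (5.89%) were called for cage and 0 of the 6 members. The unadjusted p was 0.0359 for Grin3a and 0.0482 for Grin2b, where 22.3% of all genes had a p under 0.05, and the adjusted values from edgeR's quasi-likelihood test were 0.188 and 0.220. In females 11 of 14865 genes (0.074%) were called and 0 members, 0 of which had an unadjusted p under 0.05 (5.11% of all genes), with adjusted p = 0.999 for each of the 6 in the same edgeR test. DESeq2 called 0 members in both (background 9.97% in males and 0.0252% in females).

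Grin2a and Grin2b rose and fell together from male to male. Over the 14 males their log2 CPM had a Pearson correlation of 0.959 (permutation p = 2e-05, the smallest that the resampling can give; adjusted p = 0.00138 over 69 correlations) and a Spearman correlation of 0.877 (permutation p = 0.00024, adjusted p = 0.012). Without the 2 males farthest from the median of Grin2a, Pearson's r was 0.858. Across the differences within the 7 male cages it was 0.934 (exact permutation p = 0.00397, adjusted p = 0.0179), with a Spearman correlation of 0.929 (exact permutation p = 0.00675, adjusted p = 0.0582). The points share libraries and scaling, and each library contributes both genes. Other pairs of members were correlated as well. Over the 22 libraries, with the mean of each sex subtracted and rank left in, Grin1 had r of 0.857 with Grin2b and 0.768 with Grin2a. Grin2c had a negative r with every other member, from -0.772 with Grin1 to -0.459 with Grin2a.

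Grin2c followed the cerebellar granule cell markers. In males its log2 CPM had a Pearson correlation of 0.928 with the log2 summed level of 10 such markers (permutation p = 8e-05, adjusted p = 0.00276) and a Spearman correlation of 0.815 (permutation p = 0.00052, adjusted p = 0.012). Dominant males 1 and 5 and submissive male 4 were lowest in both. Without the 2 males farthest from the median of the markers, r was 0.749, and across differences within the 7 male cages it was 0.967 (exact permutation p = 0.00198, adjusted p = 0.0124; Spearman 0.964, exact permutation p = 0.00278, adjusted p = 0.0384). In the 8 females r was 0.727 (exact permutation p = 0.0322) and rho 0.762 (exact permutation p = 0.0368), neither past the threshold after adjustment (0.0673 and 0.113). Grin1 ran against the same markers in males, with a Pearson correlation of -0.801 (permutation p = 0.00042, adjusted p = 0.0058) and a Spearman correlation of -0.648 (permutation p = 0.0158, adjusted p = 0.0909), and r was -0.558 without the 2 farthest males. Grin3a had r of -0.343 with the markers in males (permutation p = 0.166, adjusted p = 0.239) and rho of -0.138 (permutation p = 0.643, adjusted p = 0.727), with r at 0.020 without the 2 farthest.

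**Figure D5:**
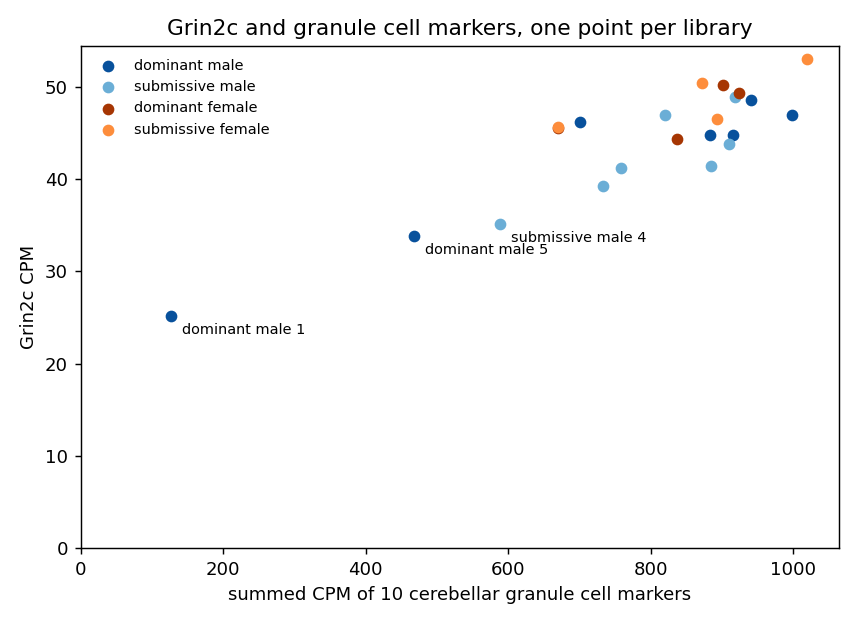
Grin2c in CPM against the summed CPM of 10 cerebellar granule cell markers, both axes from 0, 1 point per library colored by group (22 libraries). Dominant male 1, at 127 CPM of markers and 25.2 CPM of Grin2c, stands apart at the lower left, followed by dominant male 5 and submissive male 4.

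The genes with the most similar course over the 22 libraries, after the mean of each sex was subtracted, are given as a description by Pearson's r of log2 CPM among 15232 genes. The rank difference in females, on which Grin2a and Grin2b were chosen, was left in these values and enters their r. For Grin2a the closest was Grin2b (0.947), followed by D430041D05Rik and Iqsec2, a guanine nucleotide exchange factor of the postsynaptic density. For Grin2b, Iqsec2 (0.968) and Fam65a were near. Grin2c was nearest to Chn2 (0.929), which is itself among the granule cell markers, Cnksr3 and AI118078. Grin1 was nearest to Rnf150 (0.937), Arnt2 and Rab6b, Grin2d to Ptprf (0.837), Tm9sf4 and Pcnxl3, and Grin3a to B230209E15Rik (0.897), Dzank1 and Gad2, which makes GABA in inhibitory neurons.

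The genes around the receptor were taken from 5 lists. For rank in males and in females, 0 members of any list were called, where edgeR called 0% and 0.0942% of all genes tested. The 16 scaffold proteins of the postsynaptic density that hold or adjoin the receptor were 16 of 16 above 0 in dominant females, where 49.1% of all genes were, with a median log2 fold change of 0.10 against -0.002 over all genes tested. In the same contrast 72.6% of the 2973 longest genes (Length of 4949 bases or more) and 8 of 8 cortical and hippocampal neuron markers (median 0.13) were above 0, and their part in the values of the lists was not tested. In males 7 of the 16 were above 0 (48.6% of all genes), with a median of -0.003. Of the 11 AMPA, kainate and delta receptor subunits, the other ionotropic glutamate receptors, 10 were above 0 in dominant females (median 0.06), with Gria3 at 0.11 (SE 0.0316). In males 5 of the 11 were. Of the 16 kinases and phosphatases, 10 were above 0 in dominant females (median 0.04), and of the 14 trafficking genes 8 were (median 0.02). Genes of co-agonist supply, 12 in all, were above 0 in 3 in dominant females, with a median of -0.06. There Slc7a10, the astrocyte exchanger of D-serine and small amino acids, was at -0.19 (SE 0.0576). In males 3 of these 12 genes were above 0 as well, with a median of -0.055.

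By sex the lists went in both directions. Among the AMPA, kainate and delta subunits 3 of 11 were lower in females and 0 higher, namely Grik1 (-0.24, SE 0.0387, edgeR adjusted p = 2.57e-05), Grid1 (-0.23) and Grik2 (-0.13). Among scaffolds 5 of 16 were higher and 3 lower, with Shank3 at 1.02 (SE 0.0361, edgeR adjusted p = 1.98e-17), Dlgap3 at 0.79, Cnksr2 at 0.37 and Dlg4, which encodes PSD-95, at 0.25. Of 16 kinases and phosphatases that act on the receptor, 8 were higher and 2 lower, with the 4 smallest p for Src (0.38), Ppp3cb (0.22), Ptk2b (0.35) and Ppp3ca (0.20), all higher in females. Co-agonist genes had 1 higher, Ddo (0.30), and 3 lower of 12, namely Slc1a4 (-0.25), Phgdh (-0.30), the first enzyme of serine synthesis, and the glycine transporter gene Slc6a5 (-0.99). Trafficking genes had 4 higher and 3 lower of 14. These counts stand beside 18.4% of all genes called higher and 17.8% called lower, and library series and sex cannot be told apart in any of them. For cage in males, 1 list member was called, the scaffold gene Dlgap3 (edgeR adjusted p = 0.0236), and in females 0.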

How the data were processed

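The authors trimmed reads with cutadapt 1.15, aligned them to mm10 (STAR 2.6.0a) and made gene counts with featureCounts 1.6.2 (versions per the submitters' processing notes). The deposited values are raw counts, and no column of per-sample values was left without a sample. Groups came from the sample titles. TMM-scaled CPM and RPKM were computed from the deposited counts, the latter with the Length column. The main test was edgeR 4.0.16 (quasi-likelihood, R 4.3.3) with rank alone within each sex, or a mean for each of the 4 groups for sex, with Benjamini-Hochberg adjustment over all genes, a threshold of 0.05 and edgeR's filter on low counts (at least 10 in a group's worth of samples and 15 in all). Log2 CPM used a prior count of 2. Ratios and correlations were tested by permutation (SciPy 1.17.1). The length trend was a loess curve of span 0.3 per library. Length models of GENCODE and transcript GC content came from the same genome build (95.6% of genes matched). The scripts were tested on simulated counts of independent mice, with changes larger than those of Grin2a and Grin2b in females. These counts held no cage effect and no length trend.

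The members, gene lists and marker lists were chosen with earlier results of these data known. Named genes beyond the members are, per list and comparison, up to 4 with the smallest p among those called, otherwise the 1 with the smallest p, and the 3 most similar genes per member. Some genes that this rule would name are not reported here. Tph2, Slc6a4 and Slc6a5 as markers were named after their values were seen.

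Replicate numbers pair the samples, since library names give them 1 cage and cage mates were sacrificed together per the study's methods. Deviations of same-numbered samples from group means had a mean correlation of 0.177 in males (-0.0294 for other pairs) and 0.0239 in females (-0.00797). Alternatives were DESeq2 1.42.0, its size factors, no filter, length and GC trends removed, a replicate block, a joint fit of the 22 samples, and fits that left samples out. P-values measure the spread between mice of single libraries. Those for sex had no term for cage and counted cage mates as separate mice.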

Additional observations from a re-analysis of the deposited data

Results flagged for a closer look

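The Grin2b level of submissive male 4 was 391 CPM, while the other 6 submissive males lay between 273 and 324 CPM. The gap to its nearest neighbour was 0.568 of the range of the group, just over the limit for 7 samples. It was the 1 case among 24 combinations of subunit and group that were examined, and about 1 in 20 such groups passes the limit by chance. The same library had the lowest Grin2c of the submissive males, 35.1 CPM, and the lowest summed granule cell markers among them, 589 CPM. Without it the log2 fold change of Grin2b for rank in males was 0.04.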

How the results depend on the processing

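The count of subunits called stayed at 0 for rank in males and for cage in both sexes under every alternative run. For sex it was 4, with 5 when the length trend was removed, 3 when the GC trend was removed, 5 without dominant males 1 and 6, and 3 to 5 when single samples were left out. For rank in females, the contrast on which Grin2a and Grin2b were chosen and from whose counts nothing is read, it was 0, with 2 with DESeq2, 2 without the expression filter, 1 with the replicate block and 1 with the GC trend removed and the replicate block, and 0 to 2 when single females were left out (2 without dominant female 2, which are Grin2a and Grin2b). Over all genes, the count in females was 14 in the main fit, 79 with DESeq2, 84 without the filter, 25 with the GC trend removed, 36 with the replicate block, 41 with both, 8 with the length trend and the block, 0 with the length trend removed and 0 in the fit of all 22 samples, and 0 to 77 when single females were left out. With the filter off, cage called 1196 genes in males and 99 in females. The log2 fold change for rank in females was 0.16 to 0.25 for Grin2a, 0.18 to 0.29 for Grin2b, 0.045 to 0.089 for Grin1, -0.086 to -0.012 for Grin2c, -0.068 to 0.073 for Grin2d and -0.0011 to 0.030 for Grin3a when single females were left out, so that Grin2d and Grin3a changed sign. Grin3a was -0.038 with the length trend removed. The replicate block changed no other call.

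Small male rank values near 0 changed sign. Grin1 was 0.011 with the length trend removed, 0.0085 with the GC trend removed, 0.0067 and 0.0051 with each of these and the replicate block, and 3.32e-05 in the fit of all 22 samples. Grin2c was 0.029 without dominant males 1 and 6. Leaving out single males gave -0.038 to 0.030 for Grin1, -0.079 to 0.017 for Grin2a, -0.10 to 0.063 for Grin2b, -0.075 to 0.058 for Grin2c, -0.21 to -0.074 for Grin2d and -0.049 to 0.0060 for Grin3a. The ratio of Grin2b to Grin2a in males ran from -0.027 to 0.047 and that of Grin1 to summed GluN2 from -0.0052 to 0.050, the latter -0.0012 without dominant males 1 and 6. Within cages (replicate block) they were 0.0086 and 0.032. For sex, Grin2d was -0.042 with the GC trend removed. The log2 ratio of Grin1 to summed GluN2 differed by -0.18 to -0.035 between the sexes, the latter in submissive mice only. That of Grin2b to Grin2a differed by -0.22 to -0.13, the latter with the length trend removed. For the difference of rank effects between the sexes, Grin3a was -0.035 with the length trend removed, against 0.042. The causes were not tested. The GC trend and leaving out dominant males 1 and 6 together were chosen after seeing the data.

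Grin2d had 42 to 81 counts per library and Grin3b 4 to 12, the fewest among the subunits.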
